A study of Mus musculus with 12 samples.

Results

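Each of the 4 groups of this mouse fibroblast study holds 3 arrays, which the titles number 1, 2 and 3. The 4 arrays numbered 3, of 12 in all, are set here against the 8 numbered 1 and 2. They were chosen by the number in the title alone. The cells were primary mouse embryonic fibroblasts, grown out of embryos and not yet a cell line, at passage 4. The groups were HtrA2 knockout cells given 1 µM rotenone for 4 h, HtrA2 knockout cells given vehicle for 4 h, wild-type cells given rotenone and wild-type cells given vehicle. HtrA2 is a serine protease of mitochondria, and rotenone blocks respiratory complex I. Every group gave 1 array to number 3 and 2 to the other numbers, so genotype and treatment are balanced in the comparison. The labels do not say whether a number stands for an embryo, a litter, a culture or a day, nor from how many embryos the cells came. For 3 arrays titled and described as wild type with rotenone, the separate genotype field says knockout. On those arrays Htra2 read 9.02 to 9.14, near the wild-type vehicle arrays (8.83 to 9.32) and above the 6 knockout arrays (7.57 to 7.87). All levels are log2 RMA values. Differences are log2 differences, number 3 minus the mean of numbers 1 and 2 within groups.

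Fibroblasts taken from embryos divide quickly at first and then slow down in culture. During that time the inhibitor genes of the Cdkn2a locus are switched on, proliferation genes are switched off and the cells may secrete chemokines, cytokines and proteases. Growth state, stress signalling and matrix production are therefore read together when such cultures are compared. Because these are bulk RNA samples, fewer cells of a type and less RNA per cell cannot be told apart in any value below.

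Number 3 differed from the others across much of the transcriptome. Of 22626 probe sets, 4924 passed the test (21.8%), 2641 higher (11.7%) and 2283 lower (10.1%). The same comparison of number 2 with number 1 called 58 (0.256%), 20 of them higher (0.0884%) and 38 lower (0.168%). Its count lay between 12 without wild-type vehicle replicate 1 and 160 without wild-type rotenone replicate 3. Fitted on the 8 arrays numbered 1 and 2 alone, with the spread of those arrays only, it was 458 (267 higher, 191 lower). Against number 1 alone 4168 probe sets were called (18.4%), and against number 2 alone 4575 (20.2%). Without knockout vehicle replicate 3 the lower count was 1376 in place of 2283. A difference of at least 1 log2 unit, 2-fold, was called for 285 probe sets, 218 higher and 67 lower on number 3. Of the variance summed over probe sets, 43.3% lay between number 3 and the others, 11.1% between treatments, 9.01% between genotypes and 7.23% between numbers 2 and 1. With 1 probe set a gene, 2836 of 12393 genes passed (22.9%), 1573 higher (12.7%) and 1263 lower (10.2%), and the median difference over all genes was -0.04. Counts in every list below stand against these shares of 12.7% higher and 10.2% lower. These p-values measure the spread between arrays. As replicate numbers, 1 set stands against 2, and an exact permutation of whole sets could not give a p below 1 in 3.

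**Figure D1:**
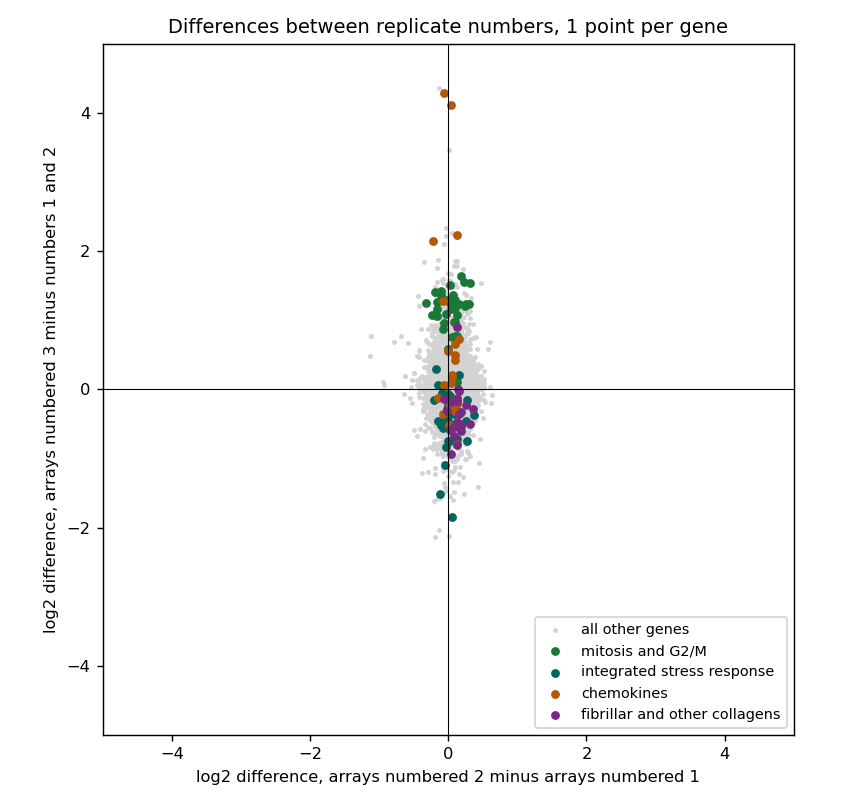
Each point is a gene (brightest probe set), with the log2 difference of the arrays numbered 2 minus those numbered 1 on the x axis and that of number 3 minus numbers 1 and 2 on the y axis, on equal scales. The cloud is narrow from left to right and tall from bottom to top, with the mitosis genes near 1.23, the integrated stress response genes mostly below 0 and 2 chemokines above 4.

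Pooled ranges of the array quality signs overlapped between the numbers, for the Tfrc control only at the edge. Within groups the Tfrc and 18S rRNA controls were mostly higher on number 3. The 3′ minus 5′ difference of the Actb control was -0.13 to 0.04 on number 3 and -0.05 to 0.12 on the others, and that of Gapdh was 0 to 0.18 and -0.06 to 0.13. That of Tfrc, itself higher on number 3, was 2.48 to 2.70 on number 3 (mean 2.6) and 2.25 to 2.48 on the others (mean 2.38). In every group the Tfrc value of number 3 was above those of numbers 1 and 2. Its part in the results was not tested. The 18S rRNA control read 11.33 to 12.3 on number 3 (mean 11.91) and 8.21 to 12.89 on the others (mean 10.24). It was higher on number 3 than on numbers 1 and 2 in every group but wild-type rotenone. The part of 18S rRNA in the results was not tested. Array medians, which the quantile step of RMA aligns, were 7.53 to 7.56 on number 3 and 7.53 to 7.58 on the others. Pairs of arrays both numbered 3 correlated at 0.9893 to 0.9971, pairs with 1 array numbered 3 at 0.9823 to 0.99, and pairs with none at 0.9903 to 0.996.

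The promoters of 6 genes with large differences are shown, because each carries a motif known to be read by a factor of its program. They are RefSeq sequences of assembly GRCm38.p6, from 250 bases before to 50 bases after the annotated start, written along the gene's strand. Capitals in the first pair mark GGGA, any base and TTTCC, a form of the NF-kB motif. Cxcl1 is at chr5:90890995-90891294 (plus strand) and Cxcl2 at chr5:90903649-90903948 (plus strand), and the capital run GGGAATTTCC is the same in both.
Cxcl1: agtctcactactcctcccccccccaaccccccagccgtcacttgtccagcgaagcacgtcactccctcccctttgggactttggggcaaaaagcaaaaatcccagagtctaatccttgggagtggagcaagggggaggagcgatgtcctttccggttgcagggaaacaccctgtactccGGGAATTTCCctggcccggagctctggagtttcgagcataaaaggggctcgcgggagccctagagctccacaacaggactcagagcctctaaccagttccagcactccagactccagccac
Cxcl2: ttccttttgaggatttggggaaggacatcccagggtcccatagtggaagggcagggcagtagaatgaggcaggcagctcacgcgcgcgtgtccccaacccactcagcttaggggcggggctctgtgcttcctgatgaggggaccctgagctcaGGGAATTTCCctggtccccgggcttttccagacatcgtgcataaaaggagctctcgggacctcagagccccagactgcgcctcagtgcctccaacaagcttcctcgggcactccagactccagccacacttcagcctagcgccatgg
In Mmp3, at chr9:7445572-7445871 (plus strand), capitals mark TGANTCA, the AP-1 motif.
Mmp3: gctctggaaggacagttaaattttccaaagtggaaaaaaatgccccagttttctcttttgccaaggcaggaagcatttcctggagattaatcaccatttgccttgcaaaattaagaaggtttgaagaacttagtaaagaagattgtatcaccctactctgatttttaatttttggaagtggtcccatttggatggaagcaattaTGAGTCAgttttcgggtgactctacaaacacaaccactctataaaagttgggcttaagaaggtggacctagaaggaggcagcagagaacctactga
In Plk1, at chr7:122159185-122159484 (plus strand), and Cdk1, at chr10:69352863-69353162 (minus strand), capitals mark TTTGAA, the CHR element of mitotic genes, and CCAAT on either strand.
Plk1: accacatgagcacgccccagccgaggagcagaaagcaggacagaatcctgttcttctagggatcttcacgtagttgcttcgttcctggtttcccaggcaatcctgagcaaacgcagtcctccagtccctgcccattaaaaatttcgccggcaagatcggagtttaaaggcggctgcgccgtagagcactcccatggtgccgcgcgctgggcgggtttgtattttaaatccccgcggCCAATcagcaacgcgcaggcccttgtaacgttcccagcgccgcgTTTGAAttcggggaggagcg
Cdk1: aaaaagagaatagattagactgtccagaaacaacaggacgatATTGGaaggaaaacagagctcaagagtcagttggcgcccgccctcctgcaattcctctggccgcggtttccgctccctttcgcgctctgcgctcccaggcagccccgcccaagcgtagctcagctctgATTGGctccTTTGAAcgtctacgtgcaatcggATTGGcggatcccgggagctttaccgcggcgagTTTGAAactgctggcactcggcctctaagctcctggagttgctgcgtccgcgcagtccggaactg
In Chac1, at chr2:119350992-119351291 (plus strand), capitals mark TGATGNAA, the composite element read by ATF4, which lies here on the opposite strand.
Chac1: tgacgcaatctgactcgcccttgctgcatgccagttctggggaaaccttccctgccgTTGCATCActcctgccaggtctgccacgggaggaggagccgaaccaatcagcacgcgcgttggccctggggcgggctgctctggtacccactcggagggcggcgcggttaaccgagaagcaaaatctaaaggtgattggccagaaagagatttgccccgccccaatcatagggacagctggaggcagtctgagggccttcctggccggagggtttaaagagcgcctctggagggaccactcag
Searched on both strands (for NF-kB, GGGA, any base and then TTTCC or TTCCC), the motifs do not overlap each other as marked. The CHR element was in 20 of 29 promoters of the mitosis list and in 15.4% of the promoters of measured genes (20.2% of all genes in the table). CCAAT was in 22 of those 29 and in 42.3% of measured genes (41.1% of all). The NF-kB motif was in 3 of 17 chemokine promoters and 1.13% of measured genes (0.873% of all). AP-1 letters were in 6 of 12 metalloprotease promoters and 7.69% of measured genes (8.97% of all). The ATF4 element was in 11 of 31 promoters of the integrated stress response list and 3.13% of measured genes (4.51% of all). The searched promoter of Birc5 held no CHR element and that of Ddit3 no ATF4 element, and only promoters with the motif are printed. A match describes the letters only, and no binding was measured.

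Genes of DNA replication and mitosis were higher on number 3 almost without exception. In the DNA replication and G1/S list 32 of 33 measured genes rose, none fell, and the median difference was 0.95. In the mitosis and G2/M list 35 of 36 rose, none fell, and the median was 1.23. In 31 of the 33 and 35 of the 36 all 4 arrays numbered 3 lay above all 8 others, against 7.47% of all genes. The genes that did not pass were Tyms (-0.13), the thymidylate synthase gene, whose brightest probe set read only about 5, and Pttg1 (0.10), the securin gene. Counts were 32, and 35 or 36, with any 1 array left out.

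Mki67, the gene of the Ki-67 proliferation antigen, read 9.49, 9.78, 10.13 and 9.79 on the arrays numbered 3, listed here and below as knockout rotenone, knockout vehicle, wild-type rotenone and wild-type vehicle. On the other 8 it read 7.88 to 8.65, with a median of 8.14. The groups did not overlap, and the wild-type rotenone array was the highest. Its difference was 1.55 ± 0.10 (SE, 4 against 8 arrays, 2.93-fold, limma adjusted p = 8.83e-08). Mcm5, a subunit of the replicative helicase, read 9.38, 9.71, 9.34 and 9.66 on number 3 and 7.25 to 8.13 (median 7.76) on the others. Again every array numbered 3 was above every other array. The difference was 1.74 ± 0.12 (3.34-fold, adjusted p = 1.44e-07).

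Among S-phase genes, Tk1 (thymidine kinase) rose by 1.67, Ccne2 (cyclin E2) by 1.58, Uhrf1 (which keeps DNA methylation through replication) by 1.33, Cdc6 (origin licensing) by 1.28 and Prim1 (primase) by 1.26. In mitosis, Kif2c (a kinesin of the centromere) rose by 1.64, Bub1 (spindle checkpoint kinase) by 1.54, Plk1 (polo-like kinase) by 1.51, Cdk1 (the mitotic cyclin-dependent kinase) by 1.43 and Birc5 (survivin) by 1.41. Top2a, which untangles DNA, rose by 1.23, while its second, dimmer probe set gave 0. Outside the lists, Ect2, an exchange factor needed for cytokinesis, read 8.68, 8.57, 9 and 8.60 on number 3 and 6.53 to 7.19 (median 7.01) on the others. No Ect2 value of number 3 came near the others, and the difference was 1.79 ± 0.10 (3.47-fold, adjusted p = 1.87e-08). Dck, which phosphorylates deoxycytidine, rose by 1.86, and its other probe sets by 0.49 and 1.14.

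The genes that start the cycle went in both directions. Of 10 measured, 3 rose, 4 fell and 3 did not pass, with a median of -0.14. Ccnd1 (cyclin D1) fell by 0.53, Ccnd2 (cyclin D2) fell by 0.49 and Myc, a growth transcription factor, fell by 0.88. Ccnd3 (cyclin D3) rose by 0.34, Cdc25a (a phosphatase that activates cyclin-dependent kinases) by 0.40 and Skp2 (which marks p27 for breakdown) by 0.72. Nucleotide synthesis genes rose in 8 of 13 measured, with none lower and a median of 0.36. They include Ctps, CTP synthase, at 0.50 and Prps1, which makes the ribose precursor, at 0.48. Ribosome biogenesis showed no common direction, with a median of 0.05. Of 23 genes 4 were higher (17.4%, against 12.7% of all genes) and 5 lower (21.7%, against 10.2%). Without wild-type rotenone replicate 3 the lower count was 1, without knockout rotenone replicate 3 it was 2, and without knockout vehicle replicate 2 or 3 or knockout rotenone replicate 2 it was 3. The higher count was 2 without wild-type vehicle replicate 3.

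The growth factor genes split. Igf2, an imprinted fetal growth factor, read 12.93, 12.94, 12.65 and 12.83 on number 3 and 10.62 to 10.91 (median 10.68) on the others. The 4 values stood together, far above the rest. Its difference was 2.11 ± 0.08 (4.32-fold, adjusted p = 5.01e-10), and a second probe set gave 2.30. In the whole list of growth factors and imprinted growth genes 4 of 24 rose and 11 fell, with a median of -0.09. The ligands of the EGF receptor Ereg and Hbegf fell by 1.27 and fell by 1.21. Fgf2 (basic fibroblast growth factor) fell by 1.00, Vegfa (an angiogenic factor) fell by 0.75 and Igf2r, the receptor that clears Igf2, fell by 0.76. Of the 6 IGF binding protein genes 1 rose and 2 fell, and Igfbp2 fell by 0.87. The single rise was lost without either knockout array numbered 3. Igfbp3 (-0.07) and Igfbp5 (-0.18) did not pass. The count of growth genes that rose was 2 without wild-type vehicle replicate 2 or knockout rotenone replicate 1.

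**Figure D2:**
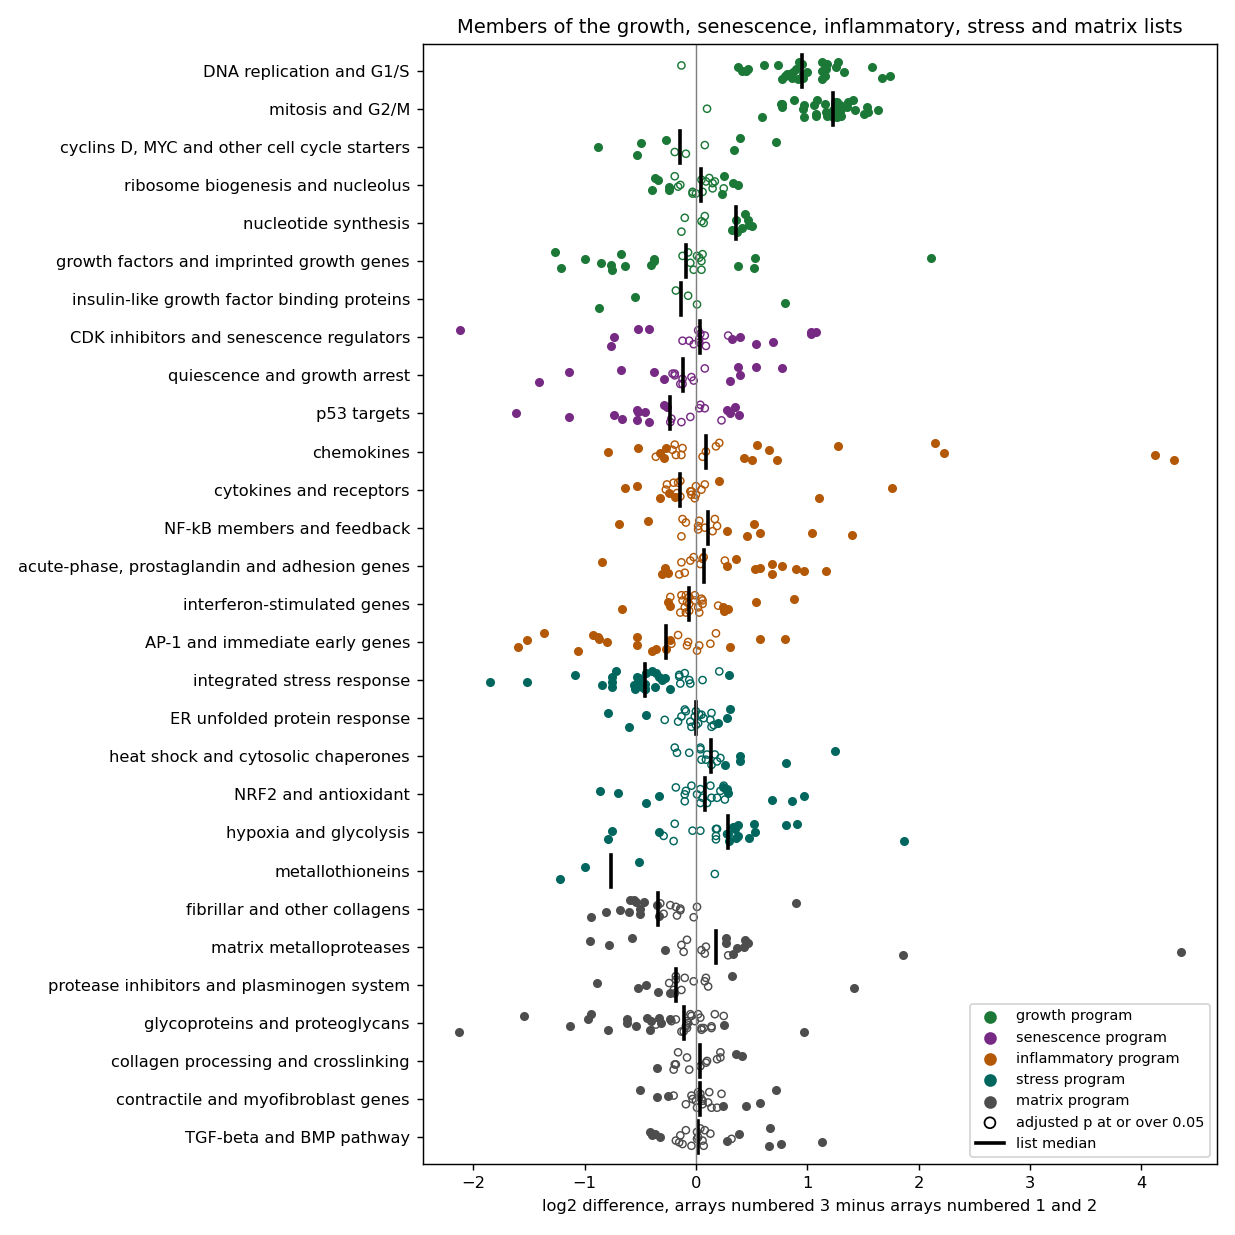
Each point is a measured gene of the list named on the left, placed by its log2 difference (number 3 minus numbers 1 and 2), filled where the limma adjusted p was under 0.05, and black bars are list medians. The replication and mitosis lists lie to the right of 0 nearly as a whole, the integrated stress response and collagen lists mostly to the left, and the chemokine and metalloprotease lists spread widely with a few genes beyond 4.

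The list of cycle inhibitors and senescence regulators split. The p15, p16 and p21 genes were lower, while the inhibitor gene Cdkn2d and several other regulators were higher. The Cdkn2a locus, which encodes p16 and p19Arf, read 6.76, 6.89, 6.44 and 7.25 on number 3 and 8.69 to 9.14 (median 9) on the others. The 4 arrays were all lower, by more than the whole spread of the other 8. The difference was -2.12 ± 0.11 (4.35-fold lower, adjusted p = 1.94e-08), and the single probe set does not tell the 2 products apart. Cdkn2b, the neighbouring p15 gene, read 9.43, 9.63, 9.59 and 9.67 on number 3 against 10.15 to 10.46 (median 10.3) on the others. It too was lower on every array numbered 3, a difference of -0.74 ± 0.06 (adjusted p = 1.22e-06).

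Cdkn1a, which encodes p21, read 12.2, 12.35, 12.16 and 12.54 on number 3 and 12.65 to 13.1 (median 12.78) on the others. The ranges came close but did not overlap. The difference was -0.52 ± 0.10 (1.44-fold lower, adjusted p = 0.00124), and its second probe set gave -1.03. Other members of the list were higher: Cdkn2d (p19Ink4d) by 1.08, Rbl1 (p107, a relative of the retinoblastoma protein) by 1.03, Ezh2 (the Polycomb methyltransferase) by 1.03 and Lmnb1 (lamin B1) by 0.40. Over the 22 measured genes 7 rose, 5 fell and the median was 0.04. The list pools inhibitors of the cycle with other regulators such as Ezh2 and Lmnb1, so these counts give no direction of senescence. Cdkn1c, the p57 gene, gave 0.03 and did not pass.

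Targets of p53 fell in 11 of 23 measured and rose in 4, with a median of -0.23. The list median was -0.42 in knockout rotenone, -0.41 in knockout vehicle, -0.10 in wild-type rotenone and -0.10 in wild-type vehicle cells. In knockout arrays alone 13 fell and in wild-type arrays alone 4, while none of the 23 passed as depending on genotype. Gadd45a, a growth arrest gene, read 7.12, 6.38, 6.95 and 6.54 on number 3 and 7.18 to 9.65 (median 8.38) on the others. The rotenone arrays were the higher ones in both sets, and the highest array numbered 3 was just under the lowest other. The difference was -1.62 ± 0.22 (3.08-fold lower, adjusted p = 8.54e-05). Btg2, an antiproliferative gene, fell by 1.14, Trp53inp1 fell by 0.74, and Pmaip1 and Bbc3, which encode the death proteins Noxa and Puma, fell by 0.66 and fell by 0.53. In the quiescence list 5 of 19 rose and 5 fell, with 3 of each when knockout vehicle replicate 3 or knockout rotenone replicate 3 was left out, and 3 higher without wild-type rotenone replicate 3. Gas2, a growth arrest gene, was the lowest of them at -1.41, and Gas6, a ligand of TAM receptors, fell by 0.67.

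Several chemokine genes were far higher on number 3. Cxcl1, a ligand that draws neutrophils through Cxcr2, read 10.17, 10.36, 9.94 and 10.49 on number 3 and 5.82 to 6.37 (median 6.13) on the others. All 4 cultures stood at one level, far over the other 8. The difference was 4.12 ± 0.09 (17.3-fold, adjusted p = 9.51e-13). Cxcl5, another Cxcr2 ligand, read 10.27, 10.33, 9.87 and 9.99 on number 3 and 4.74 to 7.07 (median 5.8) on the others. Here the other 8 were themselves spread by genotype, with the knockout arrays lowest. The difference was 4.29 ± 0.29 (19.5-fold, adjusted p = 1.48e-07).

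Cxcl2, of the same family, read 7.79, 7.42, 7.21 and 7.35 on number 3 and 4.96 to 5.48 (median 5.18) on the others, a difference of 2.23 ± 0.11 (adjusted p = 8.42e-09). Ccl2, which draws monocytes, read 11.67, 11.63, 11.02 and 11.46 on number 3 and 9.14 to 9.5 (median 9.23) on the others, a difference of 2.15 ± 0.11 (adjusted p = 1.52e-08). Both were higher on each array numbered 3 than on any other array. Ccl7, beside Ccl2 in function, rose by 1.28. In the whole chemokine list 10 of 25 rose and 5 fell, with a median of 0.09. Cxcl14, a chemokine of skin and other tissues, fell by 0.79. The lower count was 3 without either knockout array numbered 3.

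Il6, a cytokine of wound and senescence responses, read 7.48, 7.97, 7.29 and 7.73 on number 3 and 5.32 to 6.08 (median 5.95) on the others. No array overlapped, and the difference was 1.76 ± 0.12 (3.38-fold, adjusted p = 1.57e-07). Tslp, an epithelial and stromal cytokine, rose by 1.11. Of 23 measured cytokine genes 3 rose (13%, against 12.7% of all genes) and 5 fell (21.7%, against 10.2%). The other 15 did not pass, and the median was -0.14. The lower count was 1 without wild-type vehicle replicate 3 and 2 without knockout vehicle replicate 3. It was 3 without wild-type vehicle replicate 2, knockout vehicle replicate 1 or 2, or knockout rotenone replicate 1. Il1b gave -0.04, did not pass and read at most 6.48 on any array.

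Among NF-kB genes 6 of 18 rose and 2 fell, with a median of 0.11. Nfkbia, the inhibitor that NF-kB itself induces, rose by 1.04 and its 3 further probe sets by 0.71 to 1.60. Nfkbiz, a nuclear cofactor for Il6 and Lcn2, rose by 1.40. Tnfaip3 (A20), also induced by NF-kB, gave 0.15 and did not pass, and Tnfaip2 fell by 0.69. Acute-phase, prostaglandin and adhesion genes rose in 10 of 23 and fell in 4, with a median of 0.07. Hp (haptoglobin) rose by 1.17, Saa3 (serum amyloid A3) by 0.97 and Lcn2 (lipocalin 2) by 0.77. Ptgs2, the inducible cyclooxygenase, went the other way, at 10.57, 10.62, 10.93 and 10.63 on number 3 and 11.07 to 11.83 (median 11.61) on the others. Every array numbered 3 was lower, a difference of -0.84 ± 0.11 (adjusted p = 8.04e-05). Of 27 interferon-stimulated genes 5 rose (18.5%, against 12.7% of all genes) and 3 fell (11.1%, against 10.2%). Their median was -0.06. The higher count was 2 without knockout vehicle replicate 3, knockout rotenone replicate 1 or knockout rotenone replicate 3. The lower count was 1 without wild-type rotenone replicate 1 or 3 or any 1 of the knockout vehicle arrays. Ifit1 gave -0.06 and did not pass, while Ifit2 rose by 0.88.

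Immediate early genes, which serum and growth factors switch on within minutes, were mostly lower. Of 25 measured 14 fell and 3 rose, with a median of -0.27, and in 10 all 4 arrays numbered 3 lay below the other 8 (4.47% of all genes). Egr1 read 10.11, 10.26, 10.23 and 10.62 on number 3 and 11.44 to 12.17 (median 11.83) on the others, a difference of -1.52 ± 0.11 (2.87-fold lower, adjusted p = 2.07e-07). The 2 ranges were well apart. Egr2, its relative, fell by 1.60, Dusp6, a phosphatase that damps ERK signalling, fell by 1.36, and Ier2 and Klf4 fell by 1.06 and fell by 0.92. Without any 1 array 10 to 14 of the list fell.

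**Figure D3:**
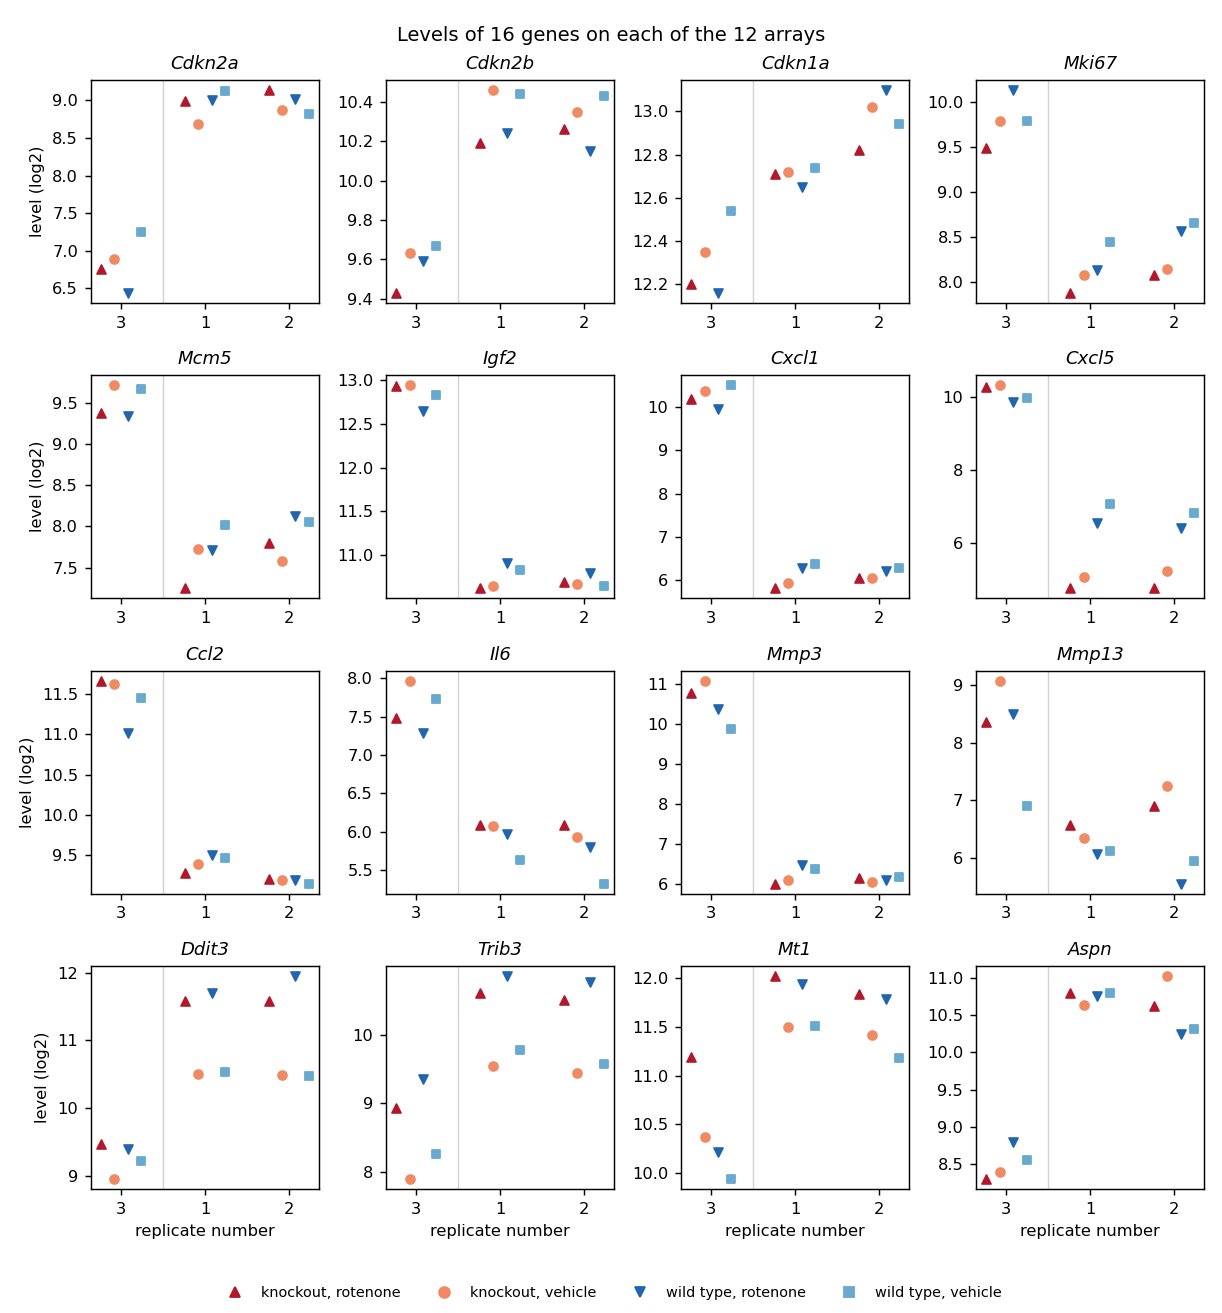
Each panel shows the log2 level of 1 gene on the 12 arrays, with replicate number 3 at the left of the line and numbers 1 and 2 at the right, and marker shape and colour giving genotype and treatment. In 14 of the 16 panels the 4 arrays numbered 3 stand clear of the other 8, while Mmp13 and Mt1 overlap through 1 array numbered 3.

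The integrated stress response, in which phosphorylated eIF2α raises the transcription factor ATF4 and its amino acid and redox targets, was lower on number 3. Of 35 measured genes 26 fell, 1 rose and 8 did not pass, with a median of -0.46. Ddit3, which encodes CHOP, read 9.47, 8.95, 9.40 and 9.22 on number 3 and 10.48 to 11.95 (median 11.06) on the others. The wild-type and knockout rotenone arrays were the highest of the other 8, and even the vehicle arrays among them lay above all of number 3. The difference was -1.85 ± 0.14 (3.59-fold lower, adjusted p = 2.59e-07). Trib3, a pseudokinase that CHOP and ATF4 induce, read 8.94, 7.90, 9.36 and 8.26 on number 3 and 9.44 to 10.85 (median 10.14) on the others. Rotenone arrays read higher than vehicle arrays on every number, and number 3 was lower throughout, a difference of -1.52 ± 0.07 (adjusted p = 3.19e-09).

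Chac1, which degrades glutathione, fell by 1.09, and Nupr1, Fgf21 and Ppp1r15a, the last a phosphatase subunit that reverses eIF2α phosphorylation, fell by 0.84, fell by 0.75 and fell by 0.75. Atf4 itself fell by 0.51. The exception was Psat1, an enzyme of serine synthesis, at 0.30. That call was lost without wild-type rotenone or knockout vehicle replicate 3, and 2 genes rose without knockout vehicle or knockout rotenone replicate 2. Between 22 and 26 genes of the list fell with any 1 array left out. The difference of number 3 did not pass as depending on treatment for Ddit3 (rotenone minus vehicle -0.86, adjusted p = 0.254) or Trib3 (-0.02, adjusted p = 0.999).

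Genes of the unfolded protein response in the endoplasmic reticulum passed at about the share of all genes. Of 24 measured genes 3 rose (12.5%, against 12.7% of all genes) and 3 fell (12.5%, against 10.2%). The other 18 did not pass, and the median was 0. Hspa5, the BiP chaperone, gave -0.16 and did not pass. Ero1a, a disulfide oxidase, fell by 0.79, Herpud1 fell by 0.60 and Xbp1 fell by 0.45. The higher count was 1 without the wild-type vehicle or the knockout rotenone array numbered 3, and the lower count 5 without the wild-type rotenone array numbered 3. Heat shock genes rose in 5 of 17, with none lower and a median of 0.14. After quantile normalization 5 were higher and 2 lower. Hspa4l rose by 1.25 and Hspa1b by 0.81. The near-identical Hspa1a gave 0.40, and probes may not separate the pair.

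Oxidant defence genes were mixed, with 6 of 26 higher, 4 lower and a median of 0.08. Hmox1, heme oxygenase 1, read 10.29, 9.79, 10.39 and 9.81 on number 3 and 10.49 to 11.38 (median 10.92) on the others, a difference of -0.86 ± 0.07 (adjusted p = 6.09e-07). All of number 3 lay below the rest. Nfe2l2, the NRF2 gene, fell by 0.70, while Gsr, glutathione reductase, rose by 0.86. The higher count was 3 without wild-type vehicle replicate 3 and 2 without knockout vehicle replicate 3 or knockout rotenone replicate 3.

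Hypoxia and glycolysis genes rose in 14 of 27 and fell in 3, with a median of 0.29. Adm, the vasodilator adrenomedullin, read 10.47, 10.5, 10.59 and 10.56 on number 3 and 8.13 to 9.36 (median 8.61) on the others. The 4 arrays lie close together and clear of the other 8. The difference was 1.87 ± 0.14 (3.65-fold, adjusted p = 2.35e-07). Bnip3, a mitophagy receptor, rose by 0.91 and Egln3, a prolyl hydroxylase of the oxygen-sensing pathway, by 0.81. Both read highest on the 2 rotenone arrays numbered 3. Without wild-type rotenone replicate 1, 5 fell in place of 3.

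Of 4 genes in the metallothionein list 3 fell, with a median of -0.76. Mt1, a zinc-binding protein, read 11.19, 10.37, 10.22 and 9.94 on number 3 and 11.18 to 12.02 (median 11.65) on the others. Only the knockout rotenone array of number 3 reached the range of the other 8. The difference was -1.22 ± 0.12 (adjusted p = 3.18e-06), while a dimmer Mt1 probe set gave -0.03. Mt2 fell by 1.00 and Slc30a1, a zinc exporter, fell by 0.51. The near-identical metallothionein genes may share probe signal.

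In the matrix program collagens were mostly lower and a few secreted proteases much higher. Of 22 collagen genes 12 fell and 1 rose, with a median of -0.34. The list median was -0.45 in knockout rotenone, -0.48 in knockout vehicle, -0.04 in wild-type rotenone and -0.44 in wild-type vehicle cells, so that the wild-type rotenone group lay at the median of all genes. In knockout arrays alone 15 fell and in wild-type arrays alone 7, and 3 of the 22 passed as depending on genotype. Between 9 and 16 fell with any 1 array left out. Col3a1 (type III collagen) fell by 0.68, Col5a1 fell by 0.59, Col12a1 fell by 0.60 and Col4a5 fell by 0.81. Col1a1, the main fibrillar collagen, read 13.61, 13.71, 13.77 and 13.51 on number 3 and 13.47 to 13.92 (median 13.81) on the others, overlapping ranges. It gave -0.14 ± 0.08 (adjusted p = 0.246). Its second probe set gave -0.32 (adjusted p = 0.0203), and without wild-type rotenone replicate 1 the first gave -0.19 (adjusted p = 0.046). Col2a1, the collagen of cartilage, was the exception at 0.90.

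Mmp3, stromelysin 1, had the largest difference of the named genes. It read 10.78, 11.09, 10.39 and 9.89 on number 3 and 6.01 to 6.49 (median 6.13) on the others. The other 8 were close together near the low end of the scale, and number 3 was far above them. The difference was 4.36 ± 0.16 (20.5-fold, adjusted p = 4.44e-10). Mmp13, a collagenase, read 8.36, 9.07, 8.5 and 6.9 on number 3 and 5.56 to 7.25 (median 6.24) on the others. Its wild-type vehicle array fell inside the range of the others, and the difference was 1.86 ± 0.23 (adjusted p = 3.62e-05). Mmp14, a membrane-bound protease, rose by 0.47, while Mmp2 (gelatinase A) fell by 0.57 and Mmp11 fell by 0.95. In the list 9 of 20 rose and 4 fell, with a median of 0.18. The group medians of the list were 0.06 in knockout rotenone, 0.03 in knockout vehicle, 0.53 in wild-type rotenone and 0.18 in wild-type vehicle cells. The higher count stayed at 9 only without knockout rotenone replicate 3. It was 5 without wild-type vehicle replicate 2, wild-type vehicle replicate 3 or wild-type rotenone replicate 3. Without any other array it was 6 to 8.

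Protease inhibitors and plasminogen genes fell in 5 of 18 (27.8%, against 10.2% of all genes) and rose in 2 (11.1%, against 12.7%), with a median of -0.18. Tfpi2, a Kunitz inhibitor, rose by 1.42 and Plat, the tissue plasminogen activator, fell by 0.89. The higher count was 1 without any 1 of the 6 knockout arrays, and the lower count was 3 without knockout vehicle replicate 3. Glycoproteins and proteoglycans fell in 15 of 39 and rose in 2, with a median of -0.11. Their group medians were -0.27 in knockout rotenone, -0.20 in knockout vehicle, 0.01 in wild-type rotenone and -0.19 in wild-type vehicle cells. The higher count stayed at 2 without wild-type vehicle replicate 1, wild-type rotenone replicate 2, knockout vehicle replicate 1 or knockout rotenone replicate 2, and was 1 without any other array. Aspn, a small leucine-rich proteoglycan that binds collagen, read 8.3, 8.4, 8.8 and 8.56 on number 3 and 10.25 to 11.02 (median 10.69) on the others. All 4 were lower than any other array. The difference was -2.13 ± 0.14 (4.39-fold lower, adjusted p = 8.83e-08), and a second probe set gave -1.64.

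Its relative Ogn (osteoglycin) fell by 1.54, Fbn2 (fibrillin 2) fell by 1.13, Fbln5 (fibulin 5) fell by 0.97, Fn1 (fibronectin) fell by 0.40, with -1.33 on a second probe set, and Postn (periostin) fell by 0.41. Lum (lumican), of the same family as Aspn, rose by 0.97. Contractile genes stayed close to the median of all genes, with a median of 0.04. Of 24 measured 4 rose (16.7%, against 12.7% of all genes) and 3 fell (12.5%, against 10.2%). The lower count was 0 without knockout rotenone replicate 3 and 1 without knockout vehicle replicate 3. Acta2, smooth muscle actin, gave 0.01 and Tagln 0.05, and neither passed. Collagen processing genes gave 2 higher (13.3%) and 1 lower (6.67%) of 15 (median 0.04). The lower count was 3 without wild-type rotenone replicate 3 and 2 without wild-type vehicle replicate 3 or wild-type rotenone replicate 2. In the TGF-beta and BMP list 6 of 25 rose (24%) and 4 fell (16%), with a median of 0.02, led in size by Smad6, an inhibitory Smad, at 1.13. The lower count was 1 without either vehicle array numbered 3 and 2 without wild-type vehicle replicate 1 or 2, knockout vehicle replicate 2 or knockout rotenone replicate 3.

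Other secreted and surface genes stood among the largest falls. Ptn, the growth factor pleiotrophin, read 9.56, 9.61, 9.30 and 9.42 on number 3 and 10.93 to 12.08 (median 11.56) on the others, with no overlap and a difference of -2.04 ± 0.11 (4.11-fold lower, adjusted p = 2.78e-08). Itgbl1 (an integrin-like secreted protein) fell by 1.59, Epha3 (an ephrin receptor) fell by 1.42 and Cpeb1 (which binds mRNA tails) fell by 1.47. Tmem267, a membrane protein, fell by 1.48. Among the largest rises, Bex1 rose by 2.33 on dim values, at 5.95 to 6.84 on number 3 and 3.96 to 4.44 on the others. U90926 rose by 2.22 and read 9.36 to 11.16 on number 3 against 7.82 to 8.5 on the others.

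The difference passed as depending on genotype for a small set of genes. For each genotype number 3 held only a vehicle and a rotenone array. The labels do not say whether these cells came from separate embryos, so genotype cannot be told apart from a trait of the embryos used. A contrast of the number 3 difference in knockout cells with the number 3 difference in wild-type cells called 151 probe sets (0.667%), 63 with a higher (0.278%) and 88 with a lower difference in knockout (0.389%). As genes these were 95, 41 higher and 54 lower, and in 42 of them the knockout and wild-type differences had opposite signs. The count ran from 28 to 427 probe sets with 1 array left out, at 28 without wild-type rotenone replicate 3, 36 without knockout rotenone replicate 3, 40 without knockout vehicle replicate 3 and 427 without wild-type vehicle replicate 3. Only 13 of the 95 genes were called in each of the 12 leave-outs. The genes named next were chosen after their values were seen, from the 7 with the smallest p, all of them among those 13.

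Aqp1, a water channel, differed by 2.55 in knockout and by 0.66 in wild-type cells (knockout minus wild type 1.89 ± 0.14, adjusted p = 9.01e-06). On number 3 knockout cells read 8.78 and wild-type cells 9.53, while on numbers 1 and 2 they read 6.23 and 8.87. Knockout cells were the lower on both, but by far less on number 3. Cxcl5 differed by 5.36 in knockout and by 3.22 in wild-type cells (2.13 ± 0.17, adjusted p = 1.72e-05). Its knockout minus wild-type difference was 0.37 on number 3 and -1.76 on numbers 1 and 2. Ppbp, another Cxcr2 ligand, differed by 2.33 in knockout and 0.64 in wild-type cells (adjusted p = 0.000131), and Sod3, extracellular superoxide dismutase, by 1.73 and 0.22 (adjusted p = 0.000575). Opposite signs were found for Ctla2a, at -0.35 in knockout and 0.99 in wild-type cells, and Ptprz1, a receptor phosphatase, at -0.83 and 0.70.

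Of the mitosis list 8 of 36 genes passed as depending on genotype, against 0.667% of all probe sets, but none of the 8 is among the 13 called in each leave-out. They were called in 9 (Ube2c), 8 (Aurka), 5 (Birc5), 4 (Ccna2, Cdk1 and Nusap1) or 2 (Plk1 and Cdc20) of the 12. The list median was 1.44 in knockout rotenone, 1.37 in knockout vehicle, 0.99 in wild-type rotenone and 0.91 in wild-type vehicle cells. Birc5 differed by 1.85 in knockout and 0.97 in wild-type cells (adjusted p = 0.0375), with adjusted p up to 0.503 without wild-type rotenone replicate 3. In knockout arrays alone 35 of the 36 rose, and in wild-type arrays alone 35. Of the 33 replication genes 32 rose in knockout arrays alone and 28 in wild-type arrays alone. For dependence on rotenone 0 probe sets passed (limma, 0%), with 880 at an unadjusted p under 0.05. Without knockout rotenone replicate 3, 24 passed. Gadd45a had the smallest p, with differences of -2.08 and -2.65 in the rotenone groups and -0.88 and -0.89 in the vehicle groups (adjusted p = 0.125).

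**Figure D4:**
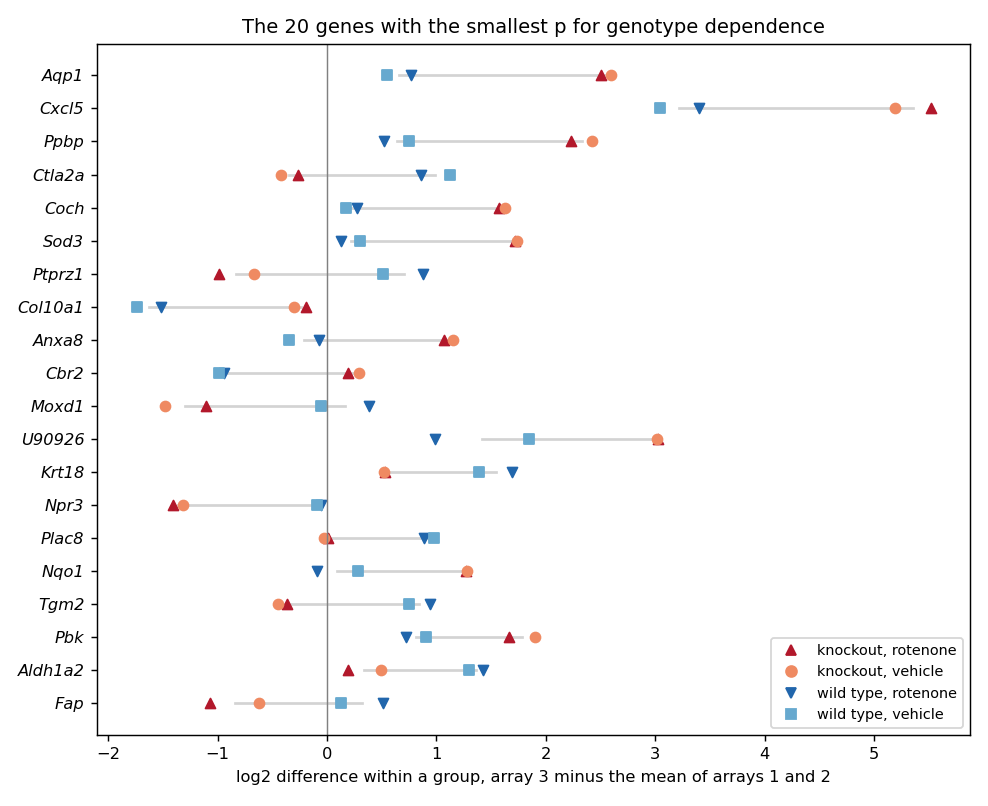
Each row is 1 of the 20 genes with the smallest p for dependence of the number 3 difference on genotype, and each marker is the log2 difference of array 3 from the mean of arrays 1 and 2 within a group. In each row both knockout markers lie on the same side of both wild-type markers, grey lines join the genotype means, the wild-type markers of U90926 (0.99 with rotenone and 1.85 with vehicle) are far apart, and Cxcl5 lies farthest to the right.

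The fibroblast label held on all arrays. Col1a1 and Acta2 read above 13 throughout, Thy1 read 12.23 to 12.88 on number 3 and 12.64 to 13.14 on the others, and Vim did not pass (-0.05). Thy1 gave -0.26 (adjusted p = 0.0549, and 0.0394 with the replicate number as a block of 3 levels). In the fibroblast identity list 3 of 21 rose (14.3%, against 12.7% of all genes) and 6 fell (28.6%, against 10.2%), with a median of -0.05. Pdgfra, a PDGF receptor, rose by 0.76 and Dpt, dermatopontin, fell by 1.19.

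Markers of other cell types moved with number 3 in part. Of 15 leukocyte and macrophage markers 9 rose (60%, against 12.7% of all genes) and none fell, with a median of 0.28. Only 6 of the 15 read above the dimmest 40% of probe sets. The mean level of the list, which holds the large Lyz1 and Lyz2 differences, was 7.01 to 7.11 on number 3. On the others it was 6.38 to 6.58. Lyz2, a lysozyme of macrophages, read 9.38, 9.46, 9.37 and 9.29 on number 3 and 6.99 to 7.28 (median 7.12) on the others, a difference of 2.26 ± 0.06 (adjusted p = 1.17e-11). Lyz1 rose by 3.46, with 3.47 and 0.07 on its other probe sets, and the near-identical Lyz1 and Lyz2 may share signal. The 4 arrays agreed closely in both genes. Cd68 rose by 0.53, Tyrobp by 0.49 and Coro1a by 0.60, with 0.28 and 0.02 on the other Coro1a probe sets. Ptprc, which encodes the pan-leukocyte antigen CD45, gave 0.13 at a level of 5.18 to 5.40 on number 3 and did not pass. Itgam, Cd74, Aif1, Laptm5 and Cd3e did not pass either. The part of such cells in the chemokine and protease differences was not tested.

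Adipocyte markers rose in 4 of 6 (66.7%, against 12.7% of all genes), with none lower and a median of 0.88. Their mean levels were 6.93 to 7.40 on number 3 and 6.21 to 6.41 on the others. Only 2 of the 6 read above the dimmest 40% of probe sets. Fabp4, a fatty acid carrier of fat cells and macrophages, read 7.24, 7.95, 7.37 and 7.97 on number 3 and 4.94 to 6.47 (median 5.72) on the others. The difference was 1.85 ± 0.17 (adjusted p = 2.66e-06), but 2 of its 3 other probe sets gave -0.05 and 0.02. Lpl, lipoprotein lipase, rose by 1.21 and Adipoq, adiponectin, by 1.24. Adipoq read highest on the 2 vehicle arrays numbered 3. Pparg and Cebpa did not pass. Of 10 epithelial markers 3 rose (30%), all keratins or keratin partners of simple epithelium (Krt8 0.73, Krt18 1.03, Krt19 1.04), and Cdh1 and Epcam did not pass. Only 4 of the 10 read above the dimmest 40%. Muscle markers rose in 4 of 10 (40%), led by Actc1, cardiac actin, at 1.19. Cartilage and bone markers rose in 2 of 8 (25%), and neural markers in 2 of 10 (20%) with 3 lower (30%, against 10.2% of all genes). Above the dimmest 40% read 3 of the muscle, 4 of the cartilage and bone and 6 of the neural markers. The neural count that fell was 1 without knockout vehicle replicate 3 or knockout rotenone replicate 3. A single cartilage and bone marker rose without any 1 of the knockout vehicle arrays, wild-type vehicle replicate 1 or 3, or wild-type rotenone replicate 2 or 3. Of 10 endothelial markers none rose and 1 fell, a call lost in 6 of the 12 leave-outs. Of 6 hepatocyte markers 1 fell, a call lost in 5 of the 12, and of 5 erythroid markers none passed.

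Sex chromosome transcripts differed too. Xist, the RNA that silences an X chromosome, read 9.03, 9.08, 8.78 and 9.42 on number 3 and 7.07 to 7.51 (median 7.33) on the others, a difference of 1.78 ± 0.11 (3.43-fold, adjusted p = 5.37e-08). Eif2s3y, on the Y chromosome, read 6.23, 6.44, 5.98 and 5.92 on number 3 and 7.38 to 8 (median 7.73) on the others. It was lower on each array numbered 3, a difference of -1.57 ± 0.12 (2.96-fold, adjusted p = 2.77e-07). Uty, also on the Y chromosome, fell by 0.69, and Kdm5d gave -0.19 at 6.29 to 6.58 on number 3 and did not pass. The part of embryo sex in the other differences was not tested.

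**Figure D5:**
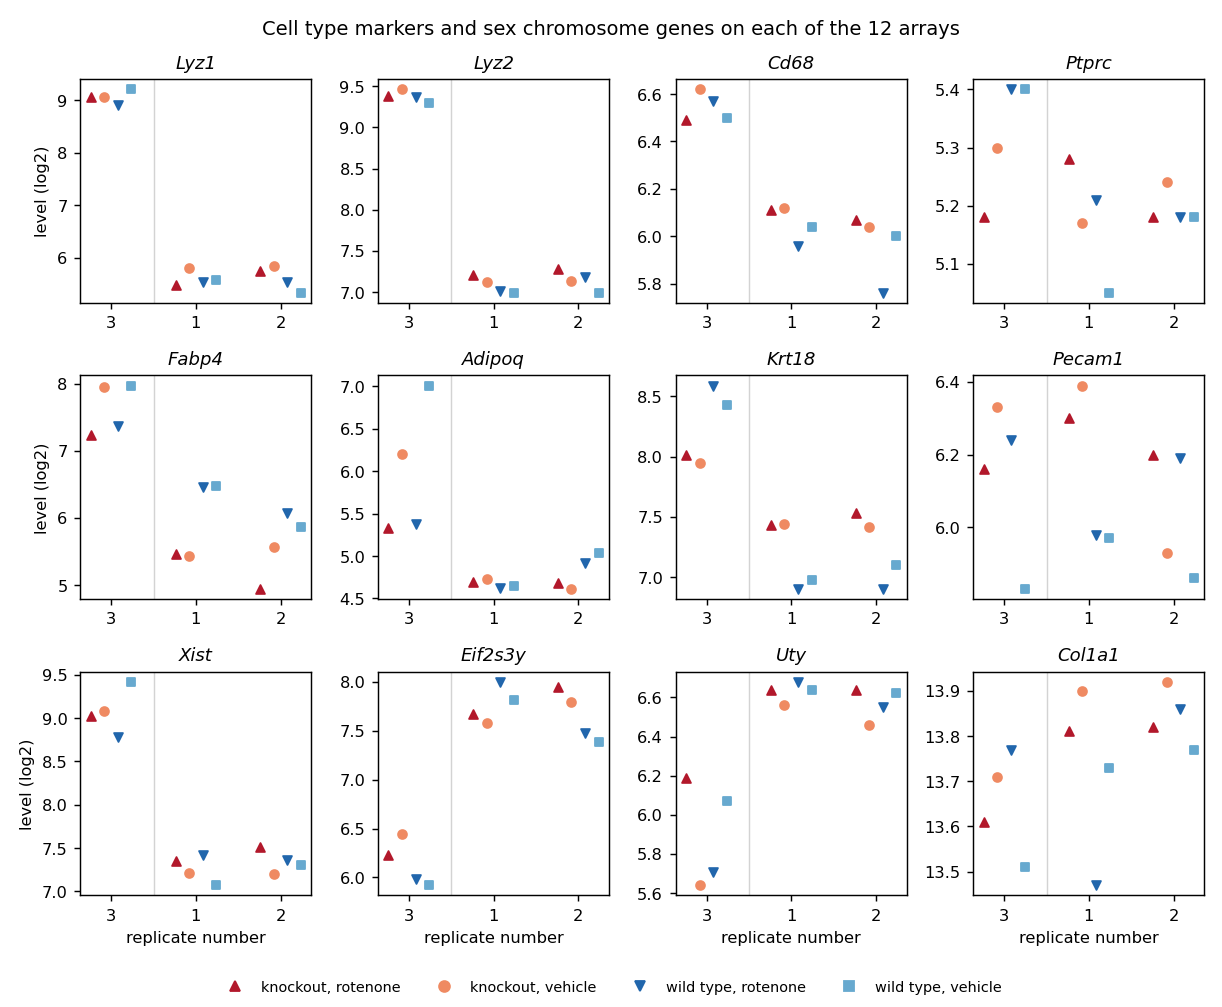
Each panel shows the log2 level of 1 gene on the 12 arrays, with replicate number 3 left of the line and numbers 1 and 2 right of it, and markers giving genotype and treatment. Lyz1, Lyz2, Cd68, Fabp4, Adipoq, Krt18 and Xist are higher on all 4 arrays numbered 3, Eif2s3y and Uty are lower, and Ptprc, Pecam1 and Col1a1 overlap.

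Tubulin genes rose in 7 of 10 and fell in 1, with a median of 0.46. The fall was lost without wild-type vehicle, wild-type rotenone or knockout vehicle replicate 3. Probe sets of these near-identical genes disagree, and 5 further Tubb4b probe sets gave -0.18 to 0 against 0.58. Sterol and fatty acid synthesis genes rose in 4 of 24 (16.7%, against 12.7% of all genes) with none lower. After quantile normalization 4 were higher and 2 lower, and 1 was lower without wild-type vehicle replicate 2 or wild-type rotenone replicate 2 or 3. Hox genes, which mark position along the body, rose in 6 of 27 (22.2%, against 12.7% of all genes) and fell in 2 (7.41%, against 10.2%). Hoxb9 fell by 0.92. The Hox count that rose was 2 without wild-type vehicle replicate 3, and 3 without wild-type vehicle replicate 2, knockout vehicle replicate 3 or knockout rotenone replicate 1. The lower count was 1 in 8 of the 12 leave-outs. Of 12 housekeeping genes 4 rose and none fell. They included Tfrc, the transferrin receptor of dividing cells, at 0.84, while Actb gave 0.04 and did not pass.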

How the data were processed

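RNA of 12 fibroblast cultures was measured on 1-colour Affymetrix arrays, 1 array a sample. The authors deposited log2 expression values made with RMA, per the submitters' processing notes, with no software version stated among the sources read. RMA corrects background, normalizes arrays by quantiles and summarises the probes of a set. RMA files carry no signal over background and no counts, so the number of arrays limits the precision. Of 22690 probe sets, 64 array controls were left out and 22626 tested, 20380 with 1 gene symbol, 691 with several and 1555 with none in the platform annotation. Where a gene had several probe sets (4956 of 12393 genes), the brightest stood for it.

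The main test was limma 3.58.1 (lmFit and eBayes, R 4.3.3), two-sided, with the 4 groups and a term for number 3, and Benjamini-Hochberg adjustment over all 22626 probe sets at 0.05. Further limma contrasts gave number 2 against 1 and the dependence of the number 3 term on genotype and on treatment. Adjusted p-values come from the main test unless one of these contrasts or an alternative is named beside them. In data simulated for the main comparison over 22626 probe sets, 94 of 100 changes of 0.5 and 100 of 100 changes of 1 (log2) were recovered. The error between sets cannot be estimated from 1 set against 2, so these rates do not account for it.

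Members and gene lists were chosen with earlier results of these data known, so no list or gene is independent evidence. Genes named are the 15 largest rises and falls with number 3 beyond both other arrays in every group, up to 6 called genes of the largest size in each list, and 51 fixed names, of which 46 were measured under 1 symbol. Other names were added after their values were seen: Tyms, Pttg1, Psat1, Actb, Aqp1, Ppbp, Ctla2a, Ptprz1, Pparg, Cebpa, Cdh1, Epcam, Kdm5d, Pecam1 and the leukocyte markers that did not pass. Of 44 lists with 908 entries, 824 entries were measured. Of 178 further probe sets of called named genes, 116 passed in the same direction and 1 in the opposite one.

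The titles share numbers across groups. Deviations from group means of same-numbered arrays correlated at 0.289 to 0.829 in all 18 pairs. The numbers were taken as pairing on that basis, and not from any statement of what a number is. These deviations contain the number 3 difference itself, which makes same-numbered arrays correlate whether or not the numbers otherwise pair arrays. The correlations therefore cannot show pairing beyond that difference. With the number 3 term fitted, the estimated correlation of arrays of a number was -0.0227. That is an average over probe sets. Single probe sets did differ between numbers 2 and 1, with 58 called (0.256%), and 458 when only the 8 arrays of those numbers were fitted. Alternatives were the number as a 3-level block, correlated arrays of a number, other normalization and filters, subsets by genotype or treatment, and each array or number left out.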

Additional observations from a re-analysis of the deposited data

Results flagged for a closer look

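In 134 sets of arrays (67 genes, numbers 3 and numbers 1 and 2 apart) a single array stood far from the others of its set 4 times. That is no more often than the 1 in 20 that chance alone gives. The sets mix the 4 groups, and in number 3 a lone array cannot be told apart from its group. Among the arrays numbered 3, wild-type rotenone read 10.93 for Ptgs2 (next 10.63) and 13.68 for Fn1 (next 13.28). Among the other 8, knockout vehicle replicate 2 read 13.43 for Hspa5 (next 13.29), and wild-type rotenone replicate 1 read 13.47 for Col1a1 (next 13.73).

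Among the genes examined here, which are only part of the named genes, the difference of number 3 passed as depending on genotype for 5 (limma, adjusted over all probe sets). It was larger in knockout than in wild-type cells by 2.13 for Cxcl5 (adjusted p = 1.72e-05), by 1.60 for U90926 (adjusted p = 0.00144), by 1.01 for Mmp3 (adjusted p = 0.0202) and by 0.59 for Timp1 (adjusted p = 0.048). For Cdkn1c it was -0.45 in knockout and 0.50 in wild-type cells, a knockout minus wild-type value of -0.95 (adjusted p = 0.0271). Cxcl5 and U90926 were called with each of the 12 arrays left out in turn. Mmp3 was called in 7 of these 12, with an adjusted p of 0.225 without knockout vehicle replicate 3. Cdkn1c was called in 5 and Timp1 in 0, with adjusted p up to 0.334 without wild-type rotenone replicate 3 and up to 0.603 without knockout rotenone replicate 3. Other genes named in the text passed too, among them Igf2r, Col4a5, Cxcl14, Krt18 and Tk1. Igf2r differed by -1.19 in knockout and -0.33 in wild-type cells (limma adjusted p = 0.0202, called in 9 of the 12 leave-outs). Col4a5 differed by -1.32 and -0.31 (adjusted p = 0.0319, called in 6), and Cxcl14 by -0.31 and -1.27 (adjusted p = 0.0406, called in 5).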

How the results depend on the processing

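Of the 4924 calls, 4913 held with the replicate number as a block of 3 levels (replicate block) and 4359 after quantile normalization. The block added Thy1 (limma adjusted p = 0.0394) among the named genes in the text. All 4924 held with the arrays of a number treated as correlated. The correlation used there was -0.0227, estimated with the number 3 term already fitted. That fit could not test whether the calls withstand likeness of the arrays within number 3. With an intensity trend 4731 calls held, and with additive covariates 4895. The count was 3157 (1635 higher) with the mean over a gene's probe sets, which tests fewer features, and fewer arrays gave 3062 (1124 lower) in vehicle, 1395 (847 higher, 548 lower) in rotenone and 2076 (1461 higher, 615 lower) in wild-type arrays alone. Leaving out single arrays gave 3309 to 5021 calls (1911 to 2722 higher, 1376 to 2388 lower), and leaving out number 1 or 2 gave 3334 and 3734 (higher 1883 and 2224, lower 1451 and 1510). Number 2 against number 1 gave 458 calls (267 higher, 191 lower) over the 8 arrays alone and 12 to 160 with 1 array left out (0 to 68 higher, 12 to 92 lower). Genotype dependence ran from 28 to 427 (15 to 166 higher, 13 to 261 lower) and treatment dependence from 0 to 24 (0 to 13 higher, 0 to 11 lower). Of 229 called named genes, 102 missed the threshold in some setting, and 193 kept it with every single array left out. Signs turned for 10 named genes. Pes1 gave -0.03 and Myh9 0.01 with the mean over probe sets, and Flt1 0.02 in wild-type arrays. Cdkn1c gave -0.02 after quantile normalization, -0.14 in vehicle and -0.45 in knockout arrays, and -0.18 to 0.25 with arrays left out. Igfbp3 gave 0.50 in rotenone and 0.17 in wild-type arrays and -0.52 to 0.21 with arrays left out. Il1b gave 0.01 after quantile normalization, 0.08 in vehicle and 0.02 in knockout arrays, and -0.12 to 0.04 with arrays or a number left out. On the same leave-outs Igfbp5 gave -0.45 to 0.09 and Ifit1 -0.15 to 0.03. Acta2 gave -0.01 in rotenone and -0.05 in knockout arrays and -0.01 to 0.03 on the leave-outs, and Vim 0.03 in rotenone arrays. The cause was not tested. A set of cultures shares a number, so the error between sets cannot be estimated from 1 set against 2.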
